A study of Mus musculus with 7 samples.

Results

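The imprinted genes of distal mouse chromosome 7 were followed through chromatin-associated RNA of female mouse embryonic stem cells (mESCs). The 8 genes were chosen by name, as the long noncoding RNAs H19 and Kcnq1ot1 and the protein-coding genes Igf2, Ascl2, Kcnq1, Cdkn1c, Slc22a18 and Phlda2, and all 8 had a row among the 22556 genes counted in each library. All 7 libraries came from mESCs of a cross of Dom/129S and Cast mice, kept in doxycycline at 1 µg/mL for 10 days. In the 4 iXist-ChrX-Dom libraries the doxycycline-responsive promoter that drives Xist stood on the Dom/129S X chromosome, and in the 3 iXist-ChrX-Cast libraries it stood on the Cast X chromosome. Each line is a single clone, and both clones descend from the same F1 line, so that strain and parent of origin cannot be told apart in these cells. The cells had been grown in serum and LIF on inactivated mouse fibroblast feeders, which were removed by pre-plating, and no library without doxycycline was analysed here. The study calls the mESC replicates replicate experiments, but neither it nor the labels say that they were separate cultures, so p-values measure the spread between these samples, which may be technical. For iXist-ChrX-Dom replicates 3 and 4 the titles and treatment fields give 10 days of induction, the time the study also states for this line, while the description fields carry a tag for day 1.

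Imprinted genes are transcribed mainly from the allele inherited from a given parent. On distal chromosome 7 there are 2 adjoining imprinted domains, each with its own imprinting control region. In the Igf2-H19 domain, the control region upstream of H19 binds CTCF on the unmethylated maternal allele, where H19 is transcribed, while Igf2 is transcribed from the paternal allele. In the Kcnq1 domain, the control region is the promoter of Kcnq1ot1, a long antisense RNA made from the unmethylated paternal allele, and Cdkn1c, Phlda2, Slc22a18, Ascl2 and, early in development, Kcnq1 are classically maternal. The CpG methylation of these regions is the inherited mark, and embryonic stem cells can lose or gain it in culture.

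The start region of Kcnq1ot1 is shown because the most abundant of the 8 RNAs begins there. That of Phlda2 is shown because it belongs to a short gene of the same domain with few fragments. Each is the RefSeq window of 250 bases before to 50 bases after the start (GRCm38.p6, minus strand), at chr7:143296498-143296797 for Kcnq1ot1 and chr7:143502475-143502774 for Phlda2, with CG dinucleotides, the bases that DNA methylation marks, in capitals.
Kcnq1ot1: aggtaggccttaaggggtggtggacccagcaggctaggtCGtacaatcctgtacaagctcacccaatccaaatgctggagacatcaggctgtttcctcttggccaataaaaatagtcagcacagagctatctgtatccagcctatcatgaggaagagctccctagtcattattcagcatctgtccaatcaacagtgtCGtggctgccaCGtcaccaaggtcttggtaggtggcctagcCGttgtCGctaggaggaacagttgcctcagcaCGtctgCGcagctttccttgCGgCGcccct
Phlda2: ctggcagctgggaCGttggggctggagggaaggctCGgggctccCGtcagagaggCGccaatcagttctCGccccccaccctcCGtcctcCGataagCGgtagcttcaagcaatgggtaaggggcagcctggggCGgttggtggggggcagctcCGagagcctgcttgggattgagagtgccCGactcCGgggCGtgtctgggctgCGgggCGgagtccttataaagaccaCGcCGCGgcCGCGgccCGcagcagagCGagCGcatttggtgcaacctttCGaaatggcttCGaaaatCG
The Kcnq1ot1 window held 9 CG dinucleotides and the Phlda2 window 26, against a median of 7 over 32851 promoter windows. Of all windows, 45.8% held at least 9 and 16.9% held at least 26. The Ascl2 window held 23 CG dinucleotides and the Slc22a18 window 2, and 4 windows for Igf2 held 7, 24, 14 and 2. The letters TGCCGC, the motif bound by the imprint-protecting protein ZFP57, were searched on both strands and were found in 1 of the 8 windows, the Igf2 window at chr7:142661222-142661521. Over all windows 11.6% held them, so this count is close to the background. The windows covered 5 of the 8 genes, and H19, Kcnq1 and Cdkn1c had none. No window was taken over the control region upstream of H19, and the Kcnq1ot1 window ends 50 bases after the start. These counts therefore do not describe the imprinting control regions as a whole.

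H19 also carries the precursor of a microRNA within its transcript, so H19 fragments include that stretch. The mature forms of miR-675 are given with the seed, bases 2 to 8, in capitals, as RefSeq places them on GRCm38.p6 at chr7:142577112-142577133 (5p) and chr7:142577078-142577099 (3p), both on the minus strand inside H19.
mmu-miR-675-5p: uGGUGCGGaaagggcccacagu
mmu-miR-675-3p: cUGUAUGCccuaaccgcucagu
The seeds of the 2 forms differ. ChrRNA-seq counts fragments of the host transcript and does not measure mature microRNAs.

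The libraries held between 14877384 and 24309806 counted fragments, of which 44.2 to 46.4% overlapped a strain polymorphism and could be given to the Cast or the Dom allele. The Cast share is the percent of these allelic fragments that came from the Cast allele. For the median autosomal gene it was 47.1 to 48.0% in the 7 libraries, and for the median chromosome 7 gene 45.7 to 47.2%, so the typical gene lay slightly below 50%. The 8 embryonic stem cell markers were detected in all libraries, at unlike levels. Esrrb, Zfp42, Tfcp2l1 and Tdgf1 were each above 100 CPM (the count scaled to library size with TMM factors) on average. Pou5f1, Nanog and Klf4 lay between 42.7 and 116 CPM, and Dppa3 between 4.99 and 9.56 CPM. The 8 markers summed to 1434 to 1776 CPM in iXist-ChrX-Dom and 1708 to 1861 CPM in iXist-ChrX-Cast, and none was at 0. Intervals on shares are Wilson 95% intervals and cover counting error only. In bulk RNA, fewer cells with a transcript cannot be told apart from less of it per cell, and a balanced share cannot be told apart from a mixture of cells that each use a different allele.

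By CPM, which is not corrected for gene length, the 8 genes fell into a very abundant RNA, a pair at moderate level and 5 near the limit of detection. Kcnq1ot1 averaged 1264 ± 146 CPM (SD, n = 4) in iXist-ChrX-Dom and 1373 ± 222 CPM (SD, n = 3) in iXist-ChrX-Cast, and ranked 34 among the 22556 genes by mean CPM. H19 averaged 19.3 ± 7.25 and 22.1 ± 12.2 CPM, and Kcnq1, which codes for a voltage-gated potassium channel subunit, 9.82 ± 3.65 and 10.5 ± 1.61 CPM. Cdkn1c, Slc22a18, Ascl2, Phlda2 and Igf2 all averaged below 1 CPM in both lines. Among these 5 the ranges over libraries overlapped, so no order could be read between neighbours.

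**Figure D1:**
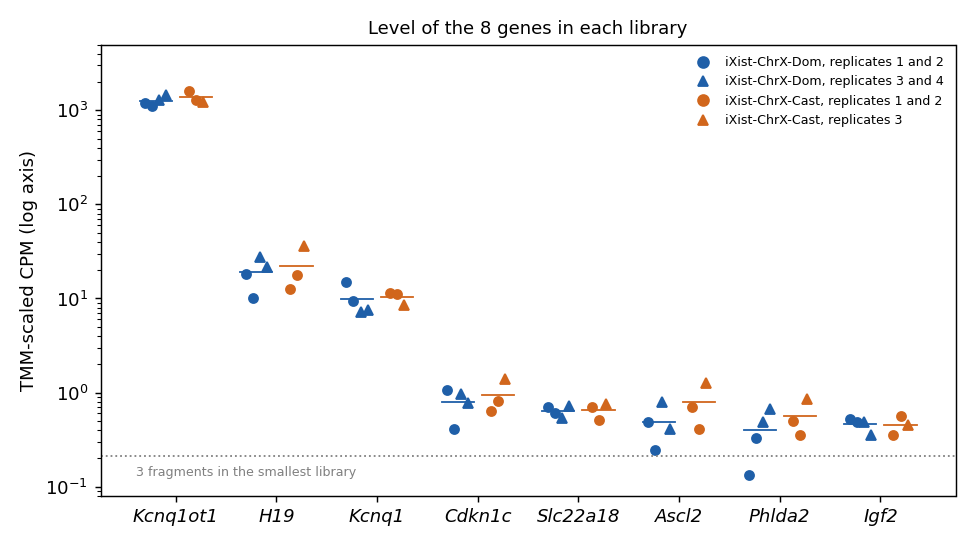
Level of each gene (TMM-scaled CPM, log axis) in the 4 iXist-ChrX-Dom libraries (blue) and the 3 iXist-ChrX-Cast libraries (orange), with circles for replicates 1 and 2, triangles for replicates 3 and 4, and a bar at the mean of each line. Kcnq1ot1 lies above 1000 CPM in every library, H19 and Kcnq1 between 7.25 and 35.9 CPM, and the other 5 genes at or below 1.40 CPM, near the dotted line at the level of 3 fragments in the smallest library.

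Per kilobase of annotated transcript, introns included, Kcnq1ot1 also led, at a mean of 15.7 CPM per kb (range 13.2 to 19.5). This was higher than in 97.7% of the 15186 genes that passed the expression filter. H19 followed with a mean of 7.84 CPM per kb (range 3.87 to 13.7), higher than in 94.4% of those genes. The ranges of the 2 noncoding RNAs overlapped, because H19 in iXist-ChrX-Cast replicate 3 reached the lowest Kcnq1ot1 libraries. Kcnq1, spread over 319.79 kb, had a mean of only 0.0316 CPM per kb, higher than in 7.20% of genes tested. A moderate CPM thus went with a low density of fragments. Phlda2, Cdkn1c, Ascl2 and Igf2 had higher means than Kcnq1, at 0.482, 0.318, 0.251 and 0.0447 CPM per kb. Slc22a18 had a lower one, at 0.0253 CPM per kb. The ranges of Igf2 and Slc22a18 overlapped that of Kcnq1.

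Kcnq1ot1 (7:143213110-143296547, minus strand, mm10) runs antisense to Kcnq1 over its whole 83.438 kb and starts inside intron 11 of Kcnq1 (16 exons), with 1 Kcnq1 exon within its span. It is the RNA that spreads repression over the domain in cis on the paternal allele. The iXist-ChrX-Dom libraries held 27632, 27055, 24393 and 28296 fragments, or 1212, 1100, 1301 and 1444 CPM, and the iXist-ChrX-Cast libraries 23117, 25089 and 24227 fragments, or 1626, 1279 and 1214 CPM. The lines overlapped, and the highest value was that of iXist-ChrX-Cast replicate 1. The log2 difference in total counts, iXist-ChrX-Dom minus iXist-ChrX-Cast, was -0.12 (SE 0.14, 95% interval -0.42 to 0.18, edgeR quasi-likelihood adjusted p = 0.721). The interval spans less than a 1.5-fold change in either direction. With replicates 1 and 2 only, the difference was -0.32 (edgeR adjusted p = 0.102).

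Kcnq1ot1 carried fragments of both alleles in every library at nearly the same share. In the order of replicates, the Cast share was 45.5, 45.3, 46.5 and 46.3% in iXist-ChrX-Dom (mean 45.9 ± 0.583, SD, n = 4) and 45.1, 45.4 and 46.8% in iXist-ChrX-Cast (mean 45.8 ± 0.908, SD, n = 3). With 11965 to 14120 allelic fragments in each library, the Wilson intervals together ran from 44.2 to 47.7%. Each strain contributed between 5400 and 7689 fragments in a library. Among 12029 autosomal genes, 42.3% had a lower Cast share in iXist-ChrX-Dom, and 41.6% did in iXist-ChrX-Cast, so the gene sat near the middle of the distribution. The Cast against Dom log2 ratio was -0.24 in iXist-ChrX-Dom (95% interval -0.30 to -0.17, adjusted p = 1.15e-06) and -0.24 in iXist-ChrX-Cast (95% interval -0.32 to -0.17, adjusted p = 6.67e-06), and with each allelic column scaled to its own typical gene it was -0.11 (adjusted p = 0.00331) and -0.08 (adjusted p = 0.072), all by edgeR. The ratio did not pass the test between lines (log2 difference 0.01, 95% interval -0.09 to 0.11, adjusted p = 0.960).

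**Figure D2:**
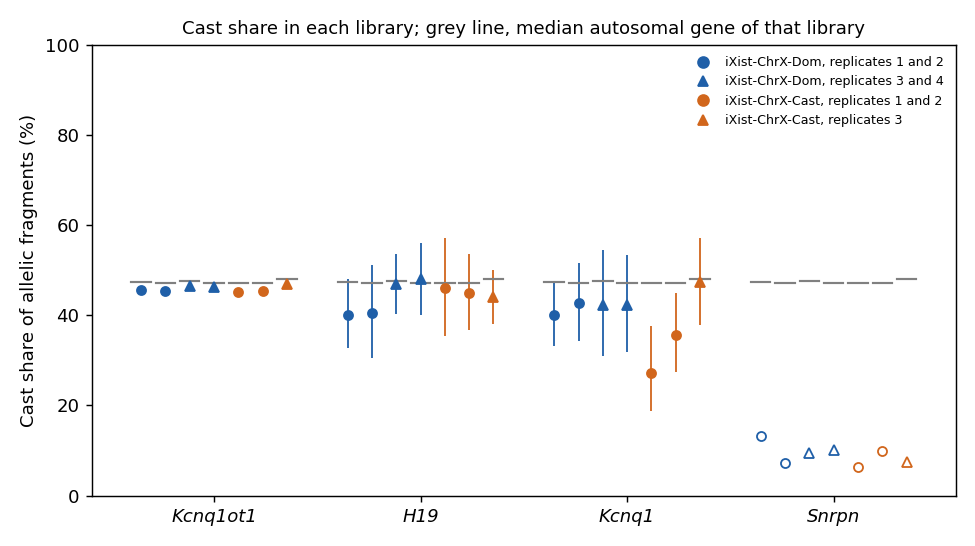
Cast share of allelic fragments (%) in each library for Kcnq1ot1, H19, Kcnq1 and Snrpn, with Wilson 95% intervals for the first 3 genes and a grey line at the median autosomal gene of the same library. Kcnq1ot1 lies between 45.1 and 46.8% H19 between 40.1 and 47.9%, Kcnq1 between 27.2 and 47.5%, and Snrpn, an imprinted gene of another chromosome 7 region, between 6.43 and 13.2%.

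H19 (7:142575531-142578146, minus strand, mm10) is the noncoding RNA of the neighbouring domain and shares enhancers with Igf2. It had 412, 249, 514 and 427 fragments in iXist-ChrX-Dom, equal to 18.1, 10.1, 27.4 and 21.8 CPM, and 181, 345 and 716 fragments in iXist-ChrX-Cast, equal to 12.7, 17.6 and 35.9 CPM. The highest library was thus 3.54 times the lowest, and the extremes of iXist-ChrX-Cast lay on either side of most iXist-ChrX-Dom values. The lines did not differ beyond that spread (log2 difference -0.20, SE 0.37, 95% interval -1.02 to 0.62, edgeR adjusted p = 0.846), and without iXist-ChrX-Cast replicate 3 the estimate turned to 0.34.

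The H19 fragments also came from both alleles. The Cast share was 40.1, 40.5, 46.9 and 47.9% in iXist-ChrX-Dom (mean 43.9 ± 4.12, SD, n = 4) and 46.1, 45.0 and 44.0% in iXist-ChrX-Cast (mean 45.0 ± 1.04, SD, n = 3), on 76 to 257 allelic fragments in a library. All 7 Wilson intervals fell within 30.6 to 57.2%. Among autosomal genes, 32.0% had a lower Cast share in iXist-ChrX-Dom, while 37.8% did in iXist-ChrX-Cast. The Cast against Dom log2 ratio was -0.33 in iXist-ChrX-Dom (edgeR adjusted p = 0.0267) and -0.31 in iXist-ChrX-Cast (edgeR adjusted p = 0.0715). The first call was lost without replicate 1 (adjusted p = 0.158), without replicate 2 (adjusted p = 0.0832), with DESeq2 (adjusted p = 0.136) and with each allelic column scaled by itself (log2 ratio -0.20, adjusted p = 0.165). Between lines the ratio differed by -0.02 (95% interval -0.41 to 0.37, edgeR adjusted p = 0.994), which leaves a difference of modest size undetectable at this depth.

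Igf2 (7:142650767-142661035, minus strand, mm10), the fetal growth factor whose allele use mirrors that of H19, was close to the detection limit. Its libraries held 12, 12, 9 and 7 fragments in iXist-ChrX-Dom and 5, 11 and 9 in iXist-ChrX-Cast, between 0.352 and 0.561 CPM. It did not pass the expression filter and was not tested. Only 8 allelic fragments were found in all 7 libraries together, 4 from each allele, so no allele use could be read. Igf2 overlaps the antisense RNA Igf2os over 1344 bases, and Igf2os itself held 2 to 11 fragments in a library.

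Kcnq1 (7:143107253-143427042, plus strand, mm10) had 344, 234, 136 and 146 fragments in iXist-ChrX-Dom and 164, 221 and 172 in iXist-ChrX-Cast, or 15.1, 9.51, 7.25 and 7.45 CPM and 11.5, 11.3 and 8.62 CPM. The lines overlapped (log2 difference -0.09, 95% interval -0.66 to 0.48, edgeR adjusted p = 0.910). Its Cast share was 40.1, 42.7, 42.2 and 42.3% in iXist-ChrX-Dom (mean 41.8 ± 1.17, SD, n = 4) and 27.2, 35.7 and 47.5% in iXist-ChrX-Cast (mean 36.8 ± 10.2, SD, n = 3), on 64 to 172 allelic fragments. The Cast allele thus gave fewer Kcnq1 fragments than the Dom allele in all 7 libraries, most unevenly in iXist-ChrX-Cast replicate 1. The Cast against Dom log2 ratio was -0.49 in iXist-ChrX-Dom (edgeR adjusted p = 0.0122, but 0.0759 without replicate 1, 0.0923 with DESeq2 and 0.0584 with each allelic column scaled by itself). In iXist-ChrX-Cast it was -0.75 (edgeR adjusted p = 0.00236, and -0.51 with adjusted p = 0.053 without replicate 1). The line difference in this ratio was 0.26 (95% interval -0.27 to 0.80, edgeR adjusted p = 0.630).

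Kcnq1 fragments amounted to 0.516 to 1.24% of the Kcnq1ot1 fragments in the same library. Because Kcnq1ot1 lies entirely within Kcnq1 on the opposite strand, a small share of its fragments read on the wrong strand would be counted as Kcnq1. In 14 opposite-strand pairs an abundant gene, with at least 1000 fragments in every library, lay within the listed span of another gene. Of these, 1 had a lower minimum than Kcnq1, namely Rtl1, at 0.0880 to 0.901% of the fragments of 6430411K18Rik within it. In several others the outer entry was a microRNA, its span drawn from the first to the last position listed. Those are not nested genes, so no rank of Kcnq1 can be read from the 14 pairs. The part of wrong-strand fragments in the Kcnq1 count was not tested.

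Cdkn1c (7:143458338-143461050, minus strand, mm10), a cyclin-dependent kinase inhibitor that restrains growth, had 24, 10, 18 and 15 fragments in iXist-ChrX-Dom and 9, 16 and 28 in iXist-ChrX-Cast. The lines overlapped and the difference did not pass the test (log2 difference -0.29, 95% interval -1.17 to 0.59, edgeR adjusted p = 0.773). Its allelic fragments were 11 from Cast and 7 from Dom in all 7 libraries, a share of 61.1% with a Wilson interval of 38.6 to 79.7%. Both alleles were therefore seen, but the balance between them is barely constrained.

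Slc22a18 (7:143473754-143499332, plus strand, mm10), an organic cation transporter, had 16, 15, 10 and 14 fragments in iXist-ChrX-Dom and 10, 10 and 15 in iXist-ChrX-Cast, with a log2 difference of -0.03 (edgeR adjusted p = 0.983). Summed over libraries, 17 of 52 allelic fragments came from Cast, 32.7% with a Wilson interval of 21.5 to 46.2%. That interval lies below the share of the median autosomal gene in every library, though not below that of the median chromosome 7 gene in all of them, on fragments pooled over libraries and with no test across them.

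Ascl2 (7:142966821-142969264, minus strand, mm10), a basic helix-loop-helix transcription factor needed for the placental spongiotrophoblast, had 11, 6, 15 and 8 fragments in iXist-ChrX-Dom and 10, 8 and 25 in iXist-ChrX-Cast. Its log2 difference between lines of -0.74 did not pass the test (95% interval -1.81 to 0.33, edgeR adjusted p = 0.477). Of 33 allelic fragments, 12 came from Cast, 36.4% with a Wilson interval of 22.2 to 53.4%. Phlda2 (7:143501547-143502524, minus strand, mm10), a pleckstrin homology protein that limits placental growth, had 3, 8, 9 and 13 fragments in iXist-ChrX-Dom and 7, 7 and 17 in iXist-ChrX-Cast and was not tested. Its 6 allelic fragments were 2 from Cast and 4 from Dom. The trophoblast markers mark the lineage in which Ascl2 and Phlda2 act. They summed to 40.3 to 49.4 CPM in iXist-ChrX-Dom and 34.5 to 54.9 CPM in iXist-ChrX-Cast. Krt8 (10.8 to 20.5 CPM) and Tfap2c (17.3 to 26.1 CPM) gave most of that sum. Of the 8 markers only 4 had at least 10 fragments in every library, and Cdx2 held 0 to 6.

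Between the lines, 0 of the 6 genes tested in total counts passed an adjusted p of 0.05 (edgeR), and 0 had an unadjusted p under 0.05. Over all 15186 genes 2.92% were called, with 443 calls, or 1794 with a replicate block, which left the members at 0. DESeq2 called 0 of the 3 to which it gave an adjusted p, namely Kcnq1ot1, H19 and Kcnq1. Within replicates 1 and 2 the line differences of H19 and Kcnq1 were -0.11 (edgeR adjusted p = 0.826) and 0.11 (edgeR adjusted p = 0.790), and replicates 3 and 4 hold only 1 iXist-ChrX-Cast library. In the allele contrast, 3 of the 8 genes had at least 10 allelic fragments in every library. All 3 were called lower from Cast in iXist-ChrX-Dom, where 40.3% of the 12445 genes tested were called in that direction and 62.8% in either. In iXist-ChrX-Cast 2 of the 3 were called lower from Cast, against 38.2% of all genes, with 57.1% called in either direction. For the difference in allelic share between lines 0 of 3 were called with edgeR and 0 with DESeq2, against 17.9% of all genes, and 0 had an unadjusted p under 0.05. A strongly biased gene was defined as one with a Cast share of at least 90% or at most 10% in every library of a line. Of the autosomal genes, 101 (0.84%) met this limit in iXist-ChrX-Dom, while 119 (0.989%) met it in iXist-ChrX-Cast, and none of the 3 genes was among them.

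Snrpn, an imprinted gene of another part of chromosome 7, is given as an example of an uneven share in the same libraries. It was chosen after its values were seen, so that its distance from the genes studied is a description only. Its Cast share was 13.2, 7.32, 9.45 and 10.1% in iXist-ChrX-Dom and 6.43, 10.0 and 7.46% in iXist-ChrX-Cast, on 171 to 246 allelic fragments. It was at or below 10% in all iXist-ChrX-Cast libraries, but above 10% in iXist-ChrX-Dom replicates 1 and 4, so it met the limit for a strongly biased gene only in iXist-ChrX-Cast.

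H19 and Kcnq1 separated by replicate number rather than by line. The files of replicates 1 and 2 follow a different naming scheme from those of replicates 3 and 4, and the labels do not say that this is a batch. This contrast was added after the values were seen. H19 lay between 10.1 and 18.1 CPM in replicates 1 and 2 (mean 14.6, n = 4 libraries) and between 21.8 and 35.9 CPM in replicates 3 and 4 (mean 28.4, n = 3 libraries), without overlap. With the line in the design, H19 was higher in replicates 3 and 4 by a log2 difference of 0.98 (SE 0.17, 95% interval 0.62 to 1.35, edgeR adjusted p = 0.000739). It was also higher within iXist-ChrX-Dom alone (0.81, edgeR adjusted p = 0.0239).

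Kcnq1 moved the other way. It lay between 9.51 and 15.1 CPM in replicates 1 and 2 (mean 11.8) and between 7.25 and 8.62 CPM in replicates 3 and 4 (mean 7.77), again without overlap. Its log2 difference was -0.61 (SE 0.16, 95% interval -0.94 to -0.27, edgeR adjusted p = 0.00999), a call lost without iXist-ChrX-Dom replicate 1 (adjusted p = 0.060) or without replicate 3 (adjusted p = 0.0526). Kcnq1ot1 had a log2 difference of 0.05 (95% interval -0.21 to 0.31, edgeR adjusted p = 0.789). Ascl2 was at 0.97 (edgeR adjusted p = 0.0669, but 0.0396 without iXist-ChrX-Dom replicate 1 and 0.0476 without replicate 4) and Cdkn1c at 0.54 (edgeR adjusted p = 0.251, but 0.0436 without iXist-ChrX-Dom replicate 1). In this contrast 2 of 6 genes were called, against 30.3% of all 15186 genes, so a call here was common among all genes. For iXist-ChrX-Dom it cannot be told apart from the conflict between 10 days and day 1 in the labels.

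**Figure D3:**
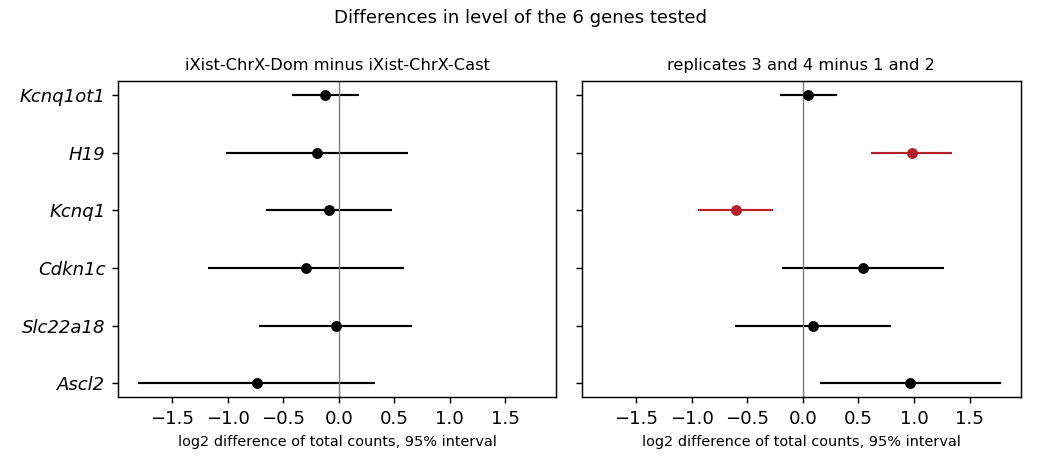
Log2 difference in total counts with its 95% interval for the 6 genes tested, between the lines (left) and between replicates 3 and 4 and replicates 1 and 2 with the line in the design (right), red where the adjusted p was under 0.05. No gene is red between the lines, whereas H19 (0.98) and Kcnq1 (-0.61) are red between the replicate sets.

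Over the 7 libraries the level of H19 ran with markers of primitive endoderm, the extraembryonic lineage that arises in embryonic stem cell cultures. The 7 markers (Gata6, Gata4, Sox17, Foxa2, Dab2, Lama1 and Col4a1) summed to 318, 267, 467 and 408 CPM in iXist-ChrX-Dom and 297, 378 and 435 CPM in iXist-ChrX-Cast, and Lama1 and Col4a1, which code for basement membrane proteins, gave most of that sum. The Pearson r of log2 values with H19 was 0.92 over 7 libraries from 2 clones, and 158 of the 15186 genes tested had a higher r with H19. The summed trophoblast and embryonic stem cell markers had an r of 0.67 and 0.60 with H19. Sox17 and Foxa2 averaged 0.399 and 0.177 CPM, and no marker was at 0 in all libraries. Between replicates 3 and 4 and replicates 1 and 2, 4 of the 5 markers tested were called higher and 1, Dab2, lower (edgeR), against 30.3% of all genes called in either direction. The gene most like H19 among all 15186 was Sparc, a secreted matrix glycoprotein, with r = 0.999, followed by Per1 (0.990) and Ptgr2 (0.986).

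**Figure D4:**
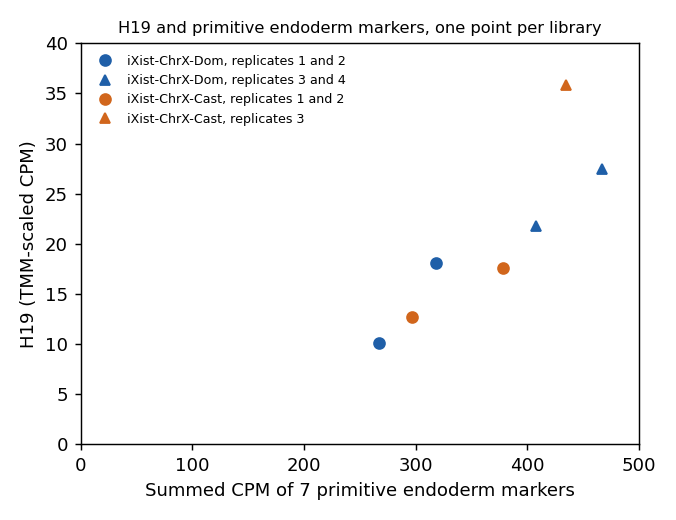
H19 (TMM-scaled CPM) against the summed CPM of 7 primitive endoderm markers, with 1 point for each library. The 3 libraries of replicates 3 and 4 lie highest on both axes, with H19 at 21.8 to 35.9 CPM and the markers at 408 to 467 CPM.

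Markers of the feeder fibroblasts were also detected. The 10 feeder markers summed to 63.8 to 78.8 CPM in iXist-ChrX-Dom and 61.7 to 70.3 CPM in iXist-ChrX-Cast, with none at 0 in all libraries, and their Cast share was 26.7 to 37.4%. Fbn1, a microfibril protein, averaged 34.4 CPM and gave the largest part of that sum, with 40.7 and 39.3% of its allelic fragments from Cast in the 2 lines. The collagen gene Col1a2 averaged 12.6 CPM, at 11.1 and 6.11% Cast. The summed feeder markers had an r of -0.48 with H19 over the 7 libraries. The lowest sum, 61.7 CPM, was that of iXist-ChrX-Cast replicate 3, which had the most H19. Col1a2 was instead lowest in iXist-ChrX-Dom replicate 3, at 9.44 CPM against 9.87 CPM in iXist-ChrX-Cast replicate 3. Because Fbn1 weighs most in the sum, the library with the least feeder RNA cannot be named from it. The part of endoderm or feeder RNA in the H19 level and in its allelic share was not tested.

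The other genes had their own nearest patterns among the 15186 tested, each over 7 libraries. Kcnq1ot1 was most like Asb7 (r = 0.962), Klf12 (0.960) and Scaper (0.959). Kcnq1 was most like BC031361 (0.985), Arhgef33 (0.983) and Sept3 (0.980). Cdkn1c was most like Prelid1 (0.987), Polr1a (0.976) and Chmp2a (0.966), Ascl2 most like Izumo4 (0.970), Eif2ak3 (0.952) and AU022252 (0.941), and Slc22a18 most like 5330417C22Rik (0.960), I830077J02Rik (0.944) and Kcna6 (0.938). Among the 8 genes themselves, H19 and Cdkn1c had an r of 0.901, while H19 and Kcnq1ot1 had -0.03 and Kcnq1 and Kcnq1ot1 -0.06. These coefficients rest on few libraries, and those of the low genes on few fragments.

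The Cast share was also followed along the surrounding region, in the 15 other genes of the 2 imprinted domains. In total counts 10 of the 15 were tested and 0 were called between lines by edgeR, 0 of them at an unadjusted p under 0.05. Of the 8 with at least 10 allelic fragments in every library, 6 were called lower from Cast in iXist-ChrX-Dom, while 5 were in iXist-ChrX-Cast, and none was called higher. Over all genes tested, 40.3 and 38.2% were called lower from Cast. Their median Cast share was 39.0 and 41.4%, and the median over all genes tested 47.6 and 47.1%. Tnfrsf22, a decoy receptor for the death ligand TRAIL, had the lowest share, with a mean of 23.8% in the former line and 22.5% in the latter. Cd81, a tetraspanin, had 33.3 and 33.9%, and Osbpl5, an oxysterol-binding protein, 26.6 and 36.7%. Nap1l4, a histone chaperone, had 45.3 and 43.9% and Cars, the cysteinyl-tRNA synthetase, 48.8 and 49.2%. Tnfrsf23, Tssc4 and Dhcr7 had 36.0, 41.9 and 43.5% in iXist-ChrX-Dom and 42.8, 48.8 and 40.0% in iXist-ChrX-Cast. For none of the 8 did the share pass the test between lines.

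Among 16 flanking genes, 14 were tested in total counts and 0 called between lines by edgeR, with 1 at an unadjusted p under 0.05. The differences of largest size were those of Ccnd1 (log2 -0.48), Ano1 (0.37) and Lsp1 (0.36). Allelic fragments sufficed for 11, of which 3 were called lower and 2 higher from Cast in iXist-ChrX-Dom, and 4 lower and 3 higher in iXist-ChrX-Cast. Over all genes tested, 22.5 and 18.9% were called higher from Cast. Ano1, a calcium-activated chloride channel, had the highest share at 88.1 and 84.0% Cast. The direction at Ano1 was opposite to that at Tnfrsf22, Cd81 and Osbpl5.

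**Figure D5:**
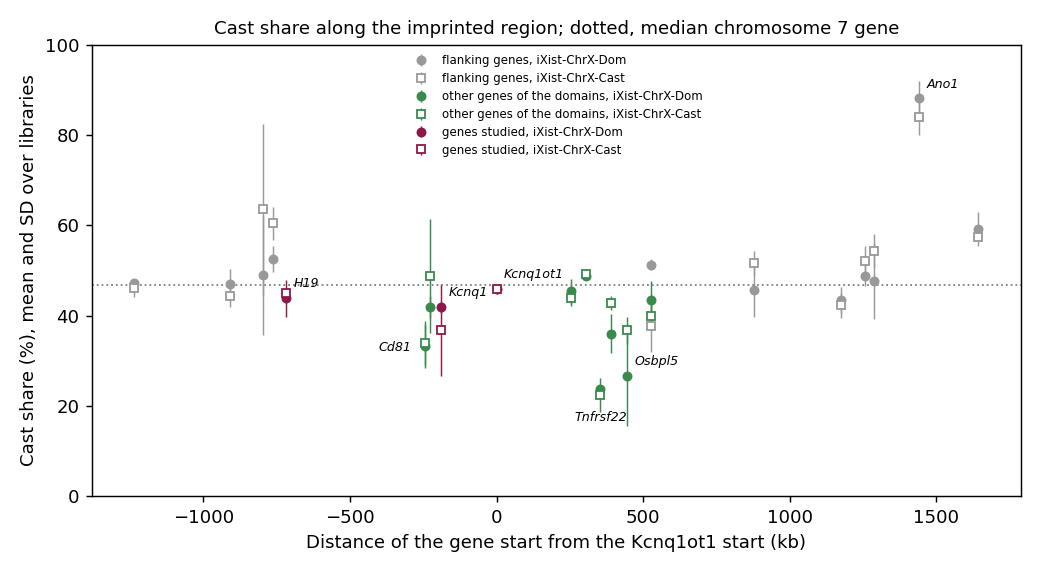
Cast share (%, mean and SD over the libraries of each line) against the distance of each gene's start from the Kcnq1ot1 start in kb, for the 3 genes studied (red), other genes of the imprinted domains (green) and flanking genes (grey) with at least 10 allelic fragments in every library. Filled circles are iXist-ChrX-Dom and open squares iXist-ChrX-Cast. Kcnq1ot1 and H19 lie close to the dotted median of chromosome 7, Tnfrsf22 near 23% and Ano1 above 80%.

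Genes for imprint maintenance and for related factors of DNA methylation and chromatin were transcribed in both lines. Of 14 such genes, all 14 were tested and 0 were called in total counts by edgeR, with 0 at an unadjusted p under 0.05. For the allelic share between lines, 1 of the 14 was called higher in iXist-ChrX-Dom and 0 lower (edgeR). Over all genes 17.9% were called in either direction. The Cast share of Ctcf was 60.2 to 66.0% in iXist-ChrX-Dom and 44.1 to 52.7% in iXist-ChrX-Cast. Trim28, the corepressor recruited by ZFP57, averaged 520.5 CPM, the maintenance methyltransferase Dnmt1 277 CPM, Ctcf 263 CPM and Zfp57 itself 250.3 CPM. The differences of largest size were those of Ehmt2 (log2 -0.27), Zfp57 (-0.23) and Dnmt3l (0.21).

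Receptors and carriers of IGF2 were present although Igf2 itself was near the limit. Of 13 genes of IGF signalling, 1 was called between lines, Insr, the insulin receptor, which was higher in iXist-ChrX-Dom (log2 difference 0.57, edgeR adjusted p = 0.0182, with 1.2% of all genes called in that direction), and 4 had an unadjusted p under 0.05. The Cast share of Insr was 67.1 ± 1.65% (SD, n = 4) in iXist-ChrX-Dom against 53.9 ± 3.81% (SD, n = 3). Of the 12 genes with enough allelic fragments, Insr and the receptor substrate Irs2, both on chromosome 8, were called for a higher Cast share in iXist-ChrX-Dom (edgeR), against 17.9% of all genes called in either direction. Such a shift was also seen in other genes of chromosome 8, namely Zfp42, Col4a1 and the Ctcf gene described above. It is therefore not read as a trait of IGF signalling or of imprint maintenance. Whether it holds for the chromosome as a whole, or goes with the Insr level, was not tested. Zfp42 had a Cast share of 66.4 to 68.4% in iXist-ChrX-Dom against 50.5 to 53.5% in iXist-ChrX-Cast, and Col4a1 60.0 to 65.1% against 43.1 to 50.7%. Igf1r, the receptor through which IGF2 signals, averaged 195 CPM and Igf2r, which clears IGF2, 128 CPM, and neither was called. The RNA-binding protein Igf2bp1 averaged 414 CPM. Cdkn1a and Cdkn1b, the relatives of Cdkn1c, averaged 21.4 and 13.9 CPM with log2 differences of 0.03 and -0.11, and 0 of the 2 were called by edgeR in total counts or in the allele contrasts, with 0 at an unadjusted p under 0.05.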

How the data were processed

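Chromatin-associated RNA was sequenced from 7 mESC libraries (4 iXist-ChrX-Dom, 3 iXist-ChrX-Cast). The authors removed rRNA reads with Bowtie2 2.3.2, used STAR 2.4.2a against mm10 with strain polymorphisms masked, separated Cast and Dom reads with SNPsplit, and counted stranded fragments over whole RefSeq transcripts with featureCounts 1.5.2. The deposited files give raw counts per gene in total and for each allele. The authors' allelic ratio tables, deposited as a fraction, were used only to check which allelic column was Cast. Alignment was to unique positions, and fragments over several genes of 1 strand were not counted.

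Total counts were tested with edgeR 4.0.16 (R 4.3.3; filterByExpr, TMM, two-sided quasi-likelihood test, adjusted by Benjamini-Hochberg over all genes, threshold 0.05). Cast and Dom counts were fitted with library as a block and a common library size, for genes with at least 10 allelic fragments in every library. The fits were tested on simulated data (99% of 200 genes changed by a log2 of 1 found among 15041, 97% for the allelic difference between lines among 12445). The genes changed there had more fragments than Cdkn1c, Ascl2 and Slc22a18, and no difference between replicate sets was simulated. These rates therefore do not give the power for such low genes or for data with that difference. Alternatives were DESeq2 1.42.0, other scalings, filters and covariates, and leaving out libraries. Replicates differed by more than sampling noise. Replicates with the same number deviated together (r = 0.360, 0.314 and 0.513 over 15186 genes), which comes from the data and the file naming, not from the labels, and unmatched numbers of the same naming scheme did so too (0.358 to 0.553).

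The genes, gene lists and tests were chosen with earlier results of these data known. All 8 genes are named. Of other lists, genes that were called or had the largest differences are named, and for each tested gene the 3 most like it by r of log2(CPM + 0.5). Gene starts and sequences are from RefSeq on GRCm38.p6, and introns from GENCODE.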

Additional observations from a re-analysis of the deposited data

How the results depend on the processing

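No member passed the test between lines in total counts or in allelic share under any of the alternatives run, and none became strongly biased. The number of genes called in total counts between lines was 443, and rose to 1094 with DESeq2, 1794 with the replicate block, 2398 with the naming scheme as covariate and 1685 with replicates 1 and 2 only, with a range of 18 to 1206 when 1 library was left out. For the allelic share between lines 2231 genes were called, and 2296 with the replicate block. The block was fitted for these 2 comparisons and changed no call of a member in either, with 0 called. Between replicate sets it was 2851 in iXist-ChrX-Dom alone (4606 in all), and 2518 to 4501 with 1 library left out, where 1 to 3 members were called. Members called in the allele contrast fell to 1 in each line with each allelic column scaled by itself and to 1 in iXist-ChrX-Dom with DESeq2, and were 1 to 3 in iXist-ChrX-Dom and 1 to 2 in iXist-ChrX-Cast with 1 library left out. Relative to the median autosomal gene, the Cast share was 48.6% (Kcnq1ot1) and 44.5% (Kcnq1) in iXist-ChrX-Dom, and 48.4% (Kcnq1ot1) and 47.6% (H19) in iXist-ChrX-Cast. These are the 4 shares that were counted as moved. The other 2, H19 in iXist-ChrX-Dom and Kcnq1 in iXist-ChrX-Cast, were counted as the same and are not printed. Strongly biased genes numbered 270 and 319 at limits of 80% and 20%, 47 and 56 at 95% and 5%, and 157 in iXist-ChrX-Dom by its mean share.

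Signs that turned were all of differences that did not pass the test. With replicates 1 and 2 only, the line difference became 0.11 for Kcnq1 and 0.14 for Slc22a18, the replicate-set difference of Slc22a18 was -0.057 in iXist-ChrX-Dom alone, and the allelic line difference of Kcnq1ot1 was -0.035 with each column scaled by itself. With 1 library left out, line differences ran from -0.46 to 0.34 (H19), -0.20 to 0.025 (Kcnq1ot1), -0.37 to 0.031 (Kcnq1), -0.48 to 0.10 (Cdkn1c) and -0.19 to 0.10 (Slc22a18). Replicate-set differences ran from -0.040 to 0.25 (Kcnq1ot1) and -0.063 to 0.22 (Slc22a18), and allelic line differences from -0.091 to 0.067 (H19) and -0.011 to 0.038 (Kcnq1ot1). The cause was not tested. Depth limits the allelic share of Igf2, Phlda2, Cdkn1c, Ascl2 and Slc22a18, which had 6 to 52 allelic fragments in all 7 libraries.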
